A study of Mus musculus with 620 samples.

Results

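The genes described here are the 7 genes of the incretin axis that carry its peptide precursor, the enzymes that make and destroy its peptides, and the receptors that read them: Gcg, Pcsk1, Glp1r, Glp2r, Gipr, Gcgr and Dpp4. They were chosen by symbol, with earlier results of these data known. All 7 were found in each deposited gene table, among 24850 genes in the LT table and 40840 in each of the ST and YA tables. The study measured poly(A) RNA of mouse tissues by bulk RNA sequencing across age, exenatide, rapamycin and hypothalamic knockdown of the GLP-1 receptor. Exenatide is a peptide agonist of that receptor, and rapamycin is an inhibitor of the mTOR kinase.

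The libraries numbered 620, from 72 animals in 11 groups. The LT cohort held young controls (8 animals), aged controls (9 animals) and aged animals given exenatide (8 animals), with 12 tissues. The ST cohort held young controls (6 animals) and 5 groups of 5 aged animals each, with 7 tissues. Those aged groups were controls, exenatide, rapamycin, controls with the hypothalamic knockdown, and exenatide with the knockdown. The YA cohort held 8 controls and 8 exenatide-treated animals, with 8 tissues. The labels used here give no strain, sex, age in months, dose or duration, and they do not spell out what LT, ST and YA stand for. They also give no vehicle, no construct for the knockdown and no treatment that its comparison group received. Library totals, in units of 1000000 counts (M), had medians of 25.79 M in LT (15.19 to 33.79 M), 24.79 M in ST (14.64 to 56.2 M) and 26.16 M in YA (14.98 to 34.15 M). Each replicate was a separate animal, so the errors and p-values below measure the spread between animals.

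Gcg encodes proglucagon, a precursor cut into different hormones in different cells: the convertase encoded by Pcsk1 releases GLP-1 and GLP-2 in intestinal L cells and in some neurons, whereas pancreatic alpha cells cut it mainly to glucagon. GLP-1, GLP-2, GIP and glucagon each act on a receptor of the same family, encoded by Glp1r, Glp2r, Gipr and Gcgr, which raise cyclic AMP in the responding cell. Dpp4 encodes the membrane peptidase that inactivates GLP-1 and GIP, and it is also the T-cell surface antigen CD26. Exenatide resists cleavage by that enzyme. No pancreas was among the tissues analysed here, so neither islets nor the main source of glucagon were sampled.

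In LT young controls, 3 libraries stood apart from their tissue label. The colon libraries of animals A52 and A53 held Sis, a brush-border disaccharidase of the small intestine, at 6057 and 6624 CPM (a gene's counts after scaling each library to 1000000 counts), against 0.324 to 27.7 CPM in the other 21 LT colon libraries. Car1, a marker of large-intestinal epithelium, was at 0.0809 and 0.0391 CPM in these libraries and at 440 to 7222 CPM in the others. The hippocampus library of A53 held the liver transcript Alb at 7520 CPM, against at most 0.850 CPM in the other 24. Results that turn on these libraries are also given without them. Markers of pancreas (12 genes, without Gcg) summed to 17436 CPM in the colon of the ST young control A46, 705 CPM in that of the LT young control A56, and 140.5 and 128.3 CPM in those of the LT exenatide animals B14 and B26. The other 65 colon libraries had at most 19.46 CPM. The colon library of the LT exenatide animal B30 is titled colon but has a source name that says only gastrointestinal tract, and with 0.759 CPM of Sis and 1581 CPM of Car1 it lay within the range of the other colons.

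The members were highest in different tissues. In the LT young controls, Glp1r was highest in lung (38.5 ± 10.5 CPM, SD, n = 8), Gcgr in liver (341 ± 49.5 CPM, n = 8), and Pcsk1 in hypothalamus (102 ± 18.4 CPM, n = 8). Leaving out A52 and A53, Gcg stood at 69.1 ± 11.6 CPM in colon (n = 4) and Glp2r at 13.7 ± 1.41 CPM there. Gipr was highest in adipose tissue (8.19 ± 1.71 CPM, n = 8). Dpp4 was the widest of them, highest in spleen (172 ± 21.7 CPM, n = 8) once A52 and A53 were left out. Its means also exceeded 40 CPM in lung, liver, white blood cells, kidney, colon and adipose tissue. The lead of spleen held for plain CPM only. With TMM scaling, which adjusts library totals for RNA composition, liver had the highest Dpp4 mean (213 CPM, against 123 CPM in spleen), again without A52 and A53.

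**Figure D1:**
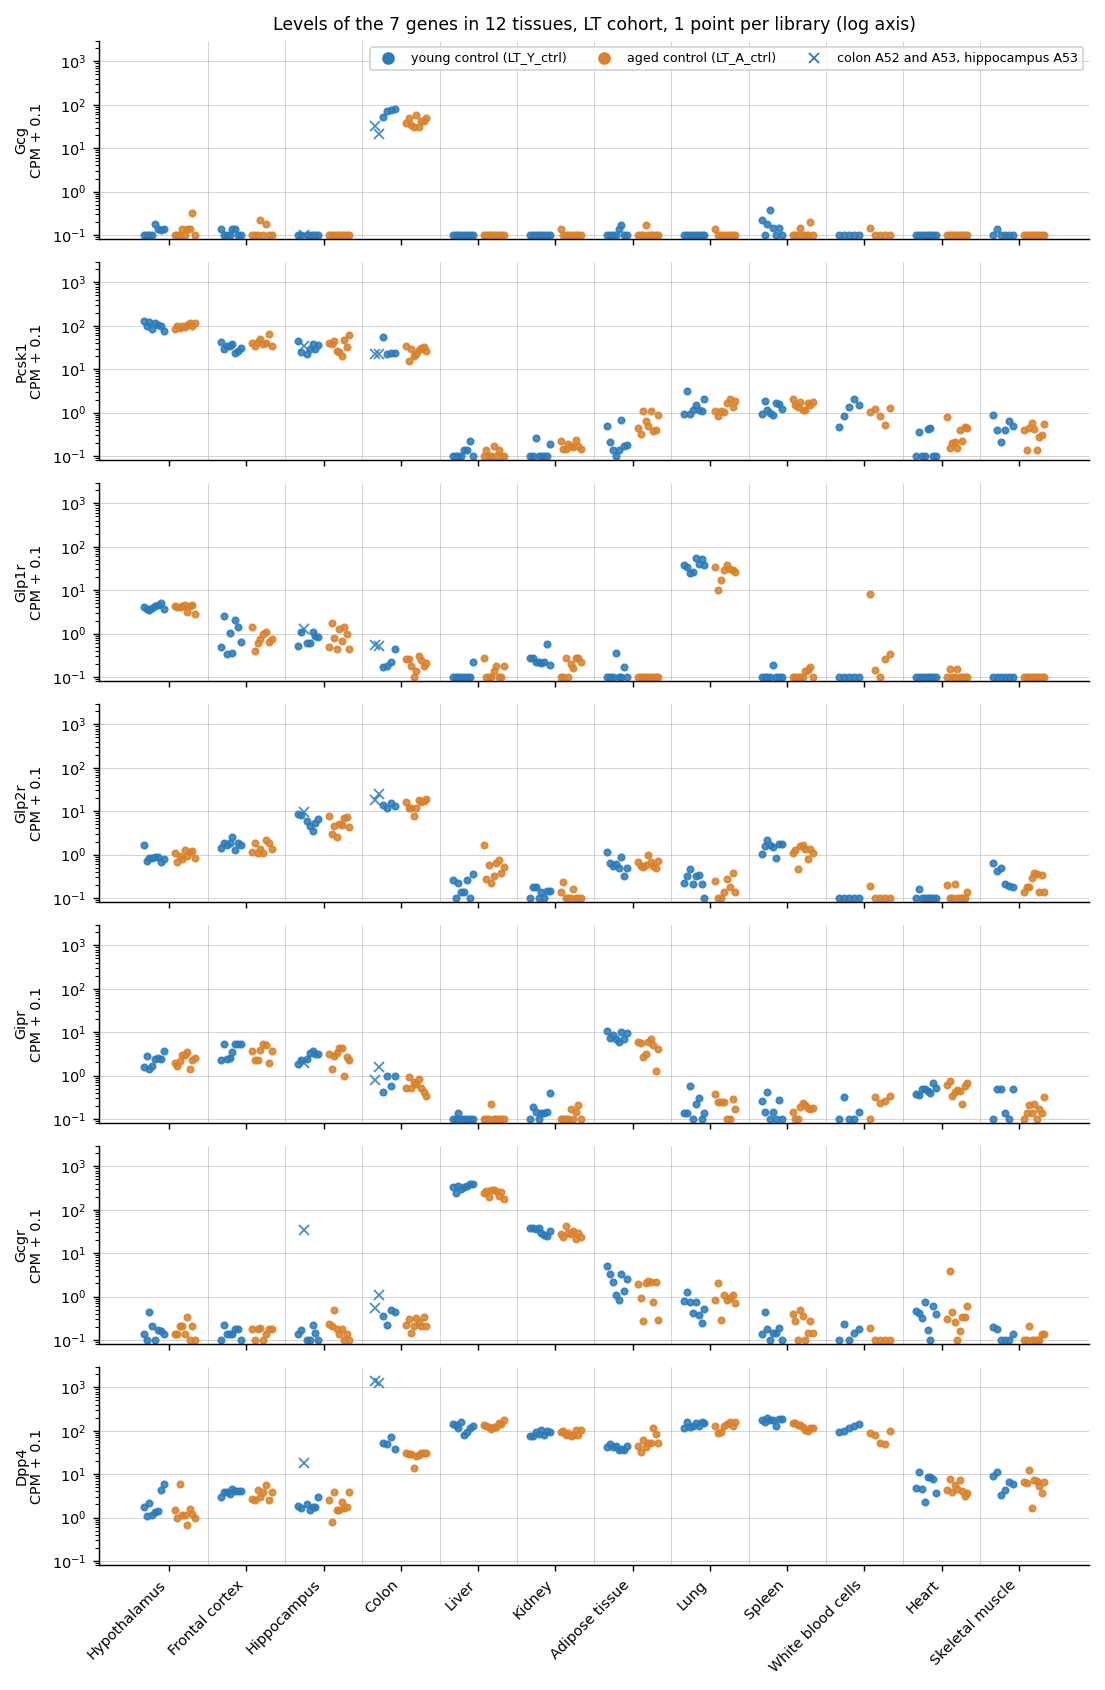
CPM + 0.1 (log axis) of the 7 genes (rows of panels) in 12 tissues (x axis), with 1 point per library for LT young controls (blue) and LT aged controls (orange); crosses are the colon libraries of A52 and A53 and the hippocampus library of A53. Gcg rises off the floor in colon, Gcgr in liver and kidney and Glp1r in lung, whereas Dpp4 lies above the floor in all 12 tissues.

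The order of tissues was taken from the young controls and tested in the LT aged controls, which are other animals, with an exact two-sided permutation test of log2(CPM + 0.1) for each pair of neighbours in the order. Of 56 neighbouring pairs with enough counts, 35 differed at an adjusted p under 0.05 (Benjamini-Hochberg over the 56 pairs), 28 of them in the order seen in the young animals and 7 against it. With the order taken without the libraries of A52 and A53 that stood apart, 30 of 55 pairs differed, 25 in order and 5 against it. With all libraries the counts were 7 of 11 pairs for Dpp4, 7 of 10 for Pcsk1, 6 of 9 for Glp2r, 5 of 9 for Gcgr, 5 of 6 for Glp1r, 4 of 10 for Gipr and 1 of 1 for Gcg. The Glp1r count includes white blood cells against spleen and against heart. These pairs had enough counts only through the 191 Glp1r counts of the white blood cells of B15. Without the animal B15, 30 of 52 pairs differed. Tissues of 1 animal share that animal. A test within animals (sign flips over animals with both tissues, a replicate block) separated 25 of the 56 pairs.

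Compared per length, the scale used here between genes, the members ranked differently in each organ. Values are CPM per kb of merged exons in the LT young controls (A52 and A53 left out of colon), with exon lengths from the GRCm38 GENCODE annotation of 1.494 kb for Gcg up to 6.319 kb for Dpp4. In colon, Gcg stood at 46.2 ± 7.78, Dpp4 at 8.26 ± 2.12, Pcsk1 at 5.56 ± 2.87 and Glp2r at 2.35 ± 0.242 CPM per kb (SD, n = 4). Liver held 130 ± 18.9 for Gcgr and 19.2 ± 4.15 for Dpp4 (n = 8). The lung values were 22.05 ± 2.58 for Dpp4 and 6.62 ± 1.80 for Glp1r, and in hypothalamus Pcsk1 (18.3 ± 3.29) stood far above Glp1r (0.695 ± 0.0960) and Gipr (0.634 ± 0.214).

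Across the 9 comparisons of age, drug and knockdown, 267 combinations of member, tissue and comparison passed the filter on low counts, and 20 were called at an adjusted p under 0.05. A called gene is one past that threshold in edgeR's quasi-likelihood test, adjusted by Benjamini-Hochberg over all genes of the tissue. The calls were 8 of 74 combinations for Dpp4, 7 of 60 for Pcsk1, 3 of 46 for Gipr, 1 of 43 for Glp2r and 1 of 14 for Gcgr. Shares of all genes called are given below for each comparison. Glp1r had 0 of 21 combinations called (3 at an unadjusted p under 0.05), and Gcg 0 of 9 (1 at an unadjusted p under 0.05). The DESeq2 Wald test called 1 Glp1r combination (hippocampus, exenatide within the knockdown, adjusted p = 0.0412) and 0 for Gcg.

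The share of members called is read against the share of all genes called in the same comparison. For aged against young LT controls, 4 of 42 member and tissue pairs were higher and 5 lower, where 13.6% of all gene and tissue pairs were called. Exenatide in the LT aged animals gave 1 lower of 42 (all genes: 4.92%), and in the YA animals 0 of 27 (0 also at an unadjusted p under 0.05; all genes: 0.631%). In the ST cohort, age gave 1 higher and 2 lower of 26 (all genes: 13.6%), exenatide 1 higher and 1 lower of 26 (8.0%), and rapamycin 2 lower of 26 (13.2%). The knockdown alone gave 0 of 26 (2 at an unadjusted p under 0.05; all genes: 3.27%). Exenatide within the knockdown animals gave 1 higher and 1 lower of 26 (4.94%), and the test of whether exenatide acted differently once the receptor was knocked down gave 1 lower of 26 (2.41%). The median log2 fold change over all genes lay between -0.07 and 0.10 in every tissue and comparison. The LT comparisons share the aged controls, as do all ST comparisons except exenatide within the knockdown, so their values are given side by side and are not independent.

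**Figure D2:**
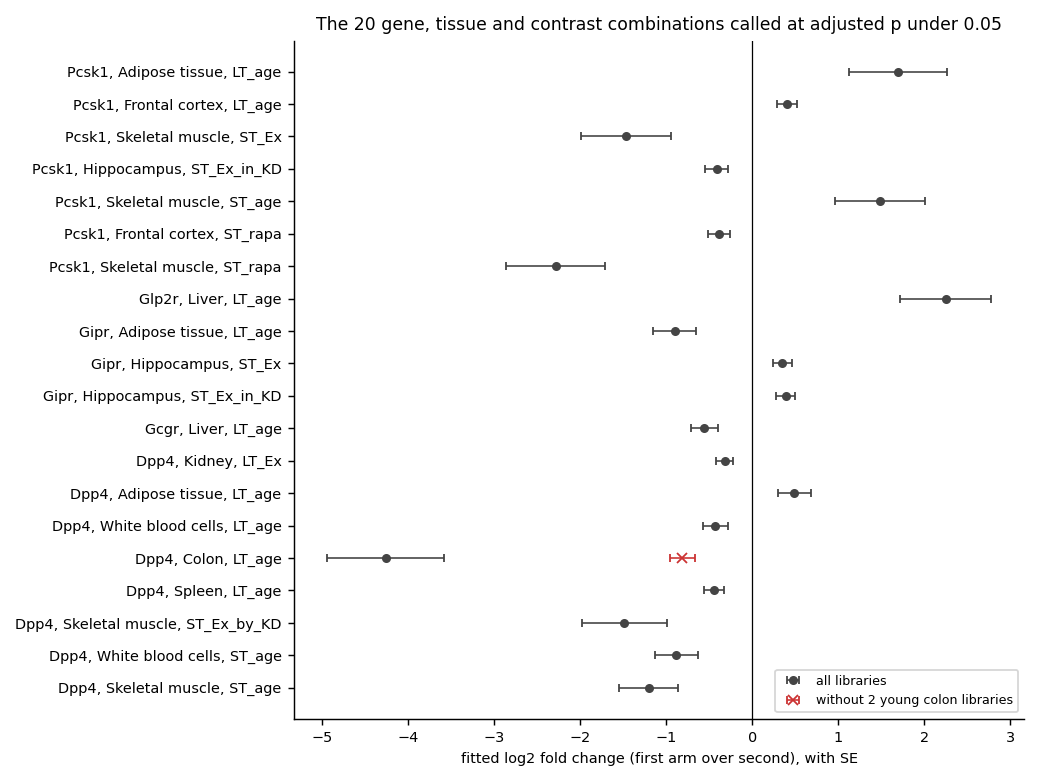
Fitted log2 fold changes (points) with standard errors (bars) for the 20 called combinations; on the y axis, age is aged over young controls, Ex exenatide, rapa rapamycin, Ex_in_KD exenatide within the knockdown and Ex_by_KD the difference of both exenatide effects. The colon Dpp4 value for age lies at -4.26 with all libraries and at -0.81 without A52 and A53 (red cross); Glp2r in liver (2.25) and Pcsk1 in muscle with rapamycin (-2.29) come next in size.

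Gcg RNA was found in colon and almost nowhere else. Of 551 libraries from other tissues, 461 had 0 Gcg counts, 22 had 3 or more and 2 had 10 or more, the highest being 32 counts (1.15 CPM) in the adipose tissue of the ST aged control E23. Liver had 0 counts in all 25 libraries, which over their 661.6 M counts allows at most 0.00453 CPM (3 counts, counting error only). Hypothalamus, which receives projections of brainstem Gcg neurons, had at most 6 counts in any library, and frontal cortex at most 5.

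In LT colon, Gcg ranged from 20.6 to 78.4 CPM in the 6 young controls (median 62.0), from 30.5 to 57.4 in the 9 aged controls (median 42.3) and from 31.5 to 65.9 in the 8 exenatide animals (median 52.7). A53 and A52 were the lowest young libraries, at 20.6 and 33.2 CPM. The groups overlapped, and the fitted age difference was -0.28 ± 0.20 (log2 fold change ± SE; adjusted p = 0.375). Without A52 and A53 it was -0.57 ± 0.18 (adjusted p = 0.0689), still short of the threshold. The libraries with pancreas markers had 73.9 (A56), 52.004 (B14) and 65.9 CPM (B26) of Gcg, the last being the highest of the exenatide group. Ins1 and Ins2 were at 0 counts in all LT colons. Without these libraries and without A52 and A53, the age difference was -0.56 ± 0.20 (adjusted p = 0.201). Summed CPM of 11 other enteroendocrine markers ran from 187 to 417 in those 4 young libraries, from 158 to 247 in aged controls and from 110 to 220 with exenatide, and their part in the Gcg values was not tested.

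The ST colon values of Gcg were 23.2, 23.5, 30.99, 35.4 and 56.7 CPM in young controls and 30.4, 30.6, 30.8, 31.4 and 41.4 CPM in aged controls. Rapamycin animals had 2.52, 10.3, 12.98, 14.99 and 37.6 CPM, so 4 of the 5 lay below every aged control and E10 lay above 4 of them. That difference was -1.01 ± 0.42 (adjusted p = 0.201) and is not a call. Enteroendocrine markers summed to 278 to 477 CPM with rapamycin and 304 to 407 CPM in the aged controls. The young library of A46 held 17436 CPM of 12 pancreas markers, with Ins1 and Ins2 at 0.235 and 0.353 CPM. Its Gcg was 35.4 CPM, within the range of its group, and the part of pancreas in that value was not tested. The other ST groups spanned 14.8 to 63.0 CPM, and YA colon had 48.9 ± 11.3 CPM in controls and 53.9 ± 12.9 CPM with exenatide (SD, n = 8 each).

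Pcsk1, the convertase of neuroendocrine secretory granules, was a brain and colon transcript. In the LT aged controls, hypothalamus stood above frontal cortex by 1.24 on the log2 scale (exact permutation test, adjusted p = 0.000177). Frontal cortex and hippocampus did not differ beyond their spread (0.26, adjusted p = 0.306), nor did hippocampus and colon (0.44, adjusted p = 0.074), and colon stood 4.32 above lung. The other cohorts were not alike in this. Over all ST groups, Pcsk1 was at 41.9 to 79.1 CPM in frontal cortex and 15.04 to 31.5 CPM in hippocampus, without overlap. The YA means were 31.5 and 9.63 CPM. Tissue order was not tested in ST and YA. Hypothalamic Pcsk1 gave no call in LT, with means of 102 ± 18.4 CPM in young controls, 100 ± 10.7 in aged controls and 109 ± 16.1 with exenatide. The YA hypothalami had 49.2 ± 4.24 and 46.2 ± 7.57 CPM, but the YA and LT tables were processed separately and sequenced in different batches, so that gap cannot be told apart from processing.

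In frontal cortex, Pcsk1 ranged from 23.1 to 43.4 CPM in LT young controls (median 31.9) and from 34.4 to 64.9 CPM in aged controls (median 40.3). All 8 aged libraries lay above the young median, although the groups overlapped. Pcsk1 was higher with age by 0.40 ± 0.11 (adjusted p = 0.0335; all genes in LT frontal cortex: 5.74%). Leaving out any 1 of 9 animals (B15, B24, B34, B37, A52, A53, A54, A56 or A57) ended the call, with fold changes from 0.33 to 0.41 and adjusted p up to 0.0914. It was also lost without the batch term (0.40, adjusted p = 0.146). Within batch 3 the value was 0.32 (adjusted p = 0.567) and within the other batch 0.45 (adjusted p = 0.0303). Exenatide-treated aged animals had 25.3 to 45.9 CPM (median 32.1), a difference of -0.38 ± 0.11 from aged controls (adjusted p = 0.14), which did not pass. Summed CPM of 5 neuron markers, 4435 to 6428 in young, 4971 to 5747 in aged and 4444 to 5598 in exenatide libraries, overlapped between the groups.

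For Pcsk1 in ST frontal cortex, age gave no call and rapamycin gave one. Aged controls had 45.7, 68.6, 69.0, 71.9 and 77.4 CPM and young controls 61.9, 66.3, 69.0, 77.2 and 79.1 CPM. Rapamycin animals had 43.9, 47.3, 49.99, 56.2 and 62.1 CPM, all below 4 of the 5 aged controls and overlapping only E29, the lowest control. Pcsk1 was lower with rapamycin by 0.39 on the log2 scale (log2 fold change -0.39 ± 0.13, adjusted p = 0.0338; all genes in that tissue: 18.2%). That call was lost without E6, E10, E13, E22, E23 or E30 (-0.37 to -0.33, adjusted p up to 0.102), and without the filter on low counts (adjusted p = 0.074) or with only these groups in the fit (0.0756). Exenatide animals had 41.9, 43.6, 47.4, 55.8 and 55.8 CPM (-0.46 ± 0.13, adjusted p = 0.113), which did not pass; p-values are adjusted over all genes of each comparison. The DESeq2 Wald test called that difference (adjusted p = 0.0366). With the knockdown, controls had 45.3, 48.2, 51.9, 62.2 and 66.4 CPM and exenatide animals 45.3, 46.4, 47.3, 50.9 and 57.9 CPM.

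In ST hippocampus, Pcsk1 was lower with exenatide among the knockdown animals. Knockdown controls had 18.5, 20.8, 23.8, 25.997 and 27.2 CPM, and knockdown animals given exenatide had 15.04, 16.2, 16.5, 18.6 and 22.7 CPM, so 3 of the 5 treated animals lay below every control. The log2 fold change was -0.41 ± 0.14 (adjusted p = 0.0213; all genes in that tissue: 31.3%), and the call was lost without E15, E34 or E35 (-0.39 to -0.35, adjusted p 0.051 to 0.0665). Without knockdown, exenatide animals had 16.9, 16.97, 17.5, 19.01 and 21.8 CPM against 19.8, 21.3, 23.9, 24.1 and 24.6 CPM in controls, a difference of -0.33 ± 0.14 (adjusted p = 0.0668). Neuron markers summed to 4732 to 5430 CPM in knockdown controls and 5211 to 5770 CPM with exenatide.

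**Figure D3:**
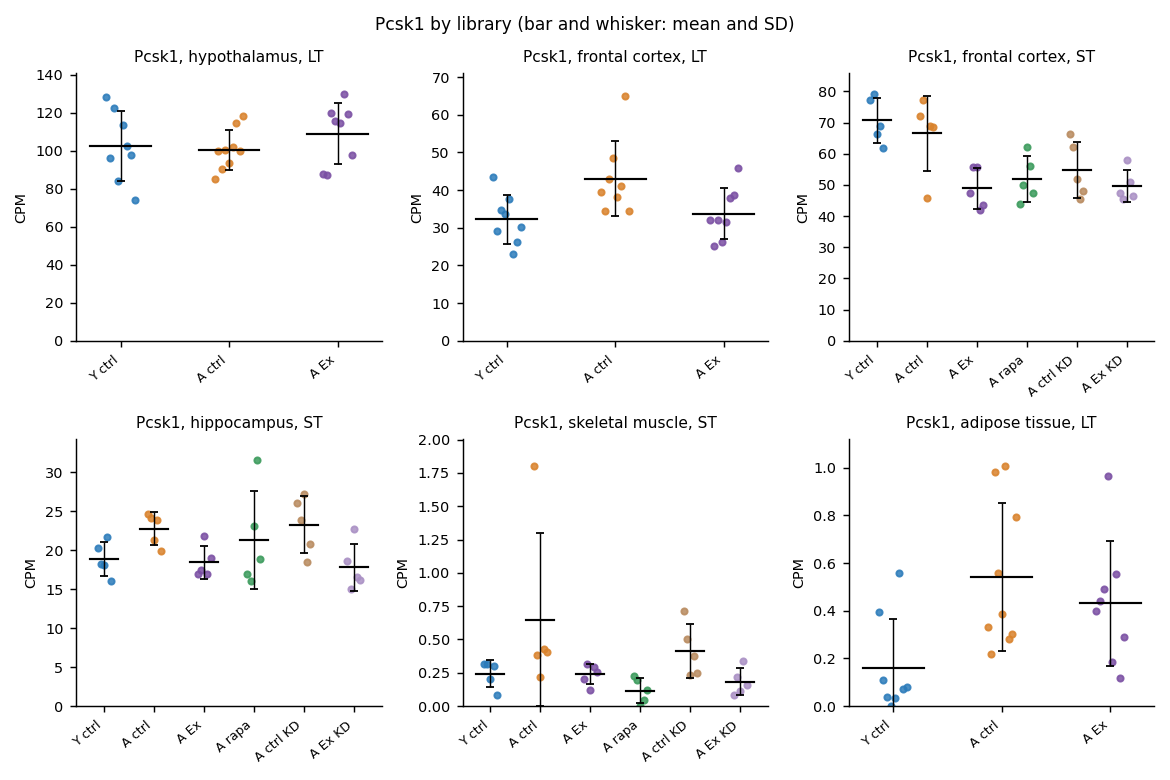
Pcsk1 CPM (y axis) of each library (points), with the group mean (bar) and SD (whisker), in hypothalamus and in the tissues where Pcsk1 was called; groups are young (Y ctrl) and aged (A ctrl) controls, exenatide (A Ex), rapamycin (A rapa) and the knockdown without (A ctrl KD) and with exenatide (A Ex KD). The single ST aged control at 1.80 CPM in skeletal muscle (E13) lies apart from the other 4 (0.221 to 0.426 CPM).

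Outside brain and colon, Pcsk1 was called at very low levels. In LT adipose tissue, young controls had 0 to 15 counts (median 0.0761 CPM, highest 0.560 CPM) and aged controls 6 to 28 counts (0.220 to 1.01 CPM, median 0.386 CPM). All young libraries but A51 and A56 lay below every aged one, and Pcsk1 was higher with age by 1.70 ± 0.57 (adjusted p = 0.0167), in a tissue and comparison where 50.8% of all genes were called. Within batch 3 the value was 1.91 (adjusted p = 0.239) and within the other batches 1.497 (adjusted p = 0.0895). B-cell markers (5 genes), as well as the lymph node markers given below for Gipr, did not overlap between the groups. The B-cell list summed to 204 to 1124 CPM in the young adipose libraries and 2017 to 17890 CPM in the aged, and 7 T-cell markers to 7.94 to 72.5 and 71.5 to 329 CPM. Adipocyte markers (6 genes) summed to 13858 to 24540 and 3575 to 11921 CPM. The part of these cells in the Pcsk1 difference was not tested, and in bulk tissue fewer cells of a type cannot be told apart from less RNA per cell.

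The ST skeletal muscle calls rest on few counts and on 1 library. Aged controls had 6, 10, 11, 11 and 43 Pcsk1 counts (0.221, 0.385, 0.409, 0.426 and 1.80 CPM), the last being E13. Young controls had 2 to 9 counts (0.0849 to 0.317 CPM), exenatide animals 3 to 8 (0.123 to 0.317 CPM) and rapamycin animals 0 to 6 (0 to 0.225 CPM). The fitted differences were 1.48 ± 0.52 for age (adjusted p = 0.0458; all genes: 18.5%), -1.46 ± 0.52 for exenatide (0.0499; 18.4%) and -2.29 ± 0.57 for rapamycin (0.0135; 10.2%). Without E13 they were 0.67 (adjusted p = 0.294), -0.65 (0.321) and -1.47, of which the rapamycin value alone still passed. Over the 30 animals left out in turn, the age call was lost for 18 and the exenatide call for 24.

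Glp1r, the receptor that exenatide activates, was a lung transcript with lower levels in brain, and no comparison of age, drug or knockdown passed for it in edgeR's test. Lung held 24.5 to 53.7 CPM in LT young controls (median 38.1), 9.88 to 37.4 CPM in aged controls (median 28.8) and 4.84 to 43.6 CPM with exenatide (median 28.7). The groups overlapped widely and the age difference was -0.55 ± 0.25 (adjusted p = 0.204). Libraries of batch 3 were lower than those of batch 2 in every group, with means of 29.8 against 43.7 CPM in young, 17.8 against 31.7 in aged and 18.7 against 33.04 in exenatide animals. Markers of lung endothelium (5 genes) summed to 1863 to 2819, 1791 to 2739 and 1254 to 2684 CPM in the same order of groups.

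Hypothalamus came next, 2.64 lower than lung on the log2 scale in the LT aged controls (exact permutation test, adjusted p = 0.000177) and 2.37 above frontal cortex. Its Glp1r averaged 4.04 ± 0.558 CPM in LT young controls, 3.92 ± 0.600 in aged controls and 3.85 ± 1.49 with exenatide (SD, n = 8, 9 and 8). The fitted differences were -0.05 ± 0.20 for both age and exenatide. YA hypothalami had 0.887 ± 0.198 CPM in controls and 0.842 ± 0.598 CPM with exenatide. The 12 neuropeptide markers of hypothalamus that were listed summed to 1167 to 1394 CPM in LT young and 1926 to 2806 CPM in YA controls. Their part in the Glp1r values was not tested. The YA and LT tables were processed separately and sequenced in different batches, so the gap in Glp1r cannot be told apart from processing.

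No ST hypothalamus library was among those analysed here, so the knockdown could not be checked in its target region. The nearest brain regions had few Glp1r counts. In ST frontal cortex, the knockdown controls had 2, 5, 10, 12 and 18 counts (0.0810, 0.218, 0.399, 0.491 and 0.772 CPM). Controls without knockdown had 10, 11, 11, 13 and 62 counts, the last in E13 (2.60 CPM), and the difference was -1.18 ± 0.68 (adjusted p = 0.26). In ST hippocampus, the knockdown controls had 0.111 to 1.29 CPM and the controls 0.353 to 2.44 CPM (-0.69 ± 0.60, adjusted p = 0.555). Knockdown animals given exenatide had 0.179, 0.194, 0.204, 0.224 and 0.287 CPM in hippocampus (5 to 9 counts each), within the range of the knockdown controls (-1.56 ± 0.71, adjusted p = 0.0966).

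Frontal cortex and hippocampus did not differ for Glp1r beyond the spread in LT aged controls (-0.08, adjusted p = 0.808), at 0.723 ± 0.323 and 0.814 ± 0.464 CPM. Exenatide-treated LT animals had 0.299 to 1.77 CPM in frontal cortex against 0.295 to 1.33 CPM in aged controls (0.79 ± 0.37, adjusted p = 0.392). Skeletal muscle had 0 Glp1r counts in all 69 libraries, which over 1765.2 M counts allows at most 0.0017 CPM. Heart, liver, spleen and adipose tissue had medians of 0 CPM in the LT young and aged controls. In circulating white blood cells, B15 of the LT aged controls held 191 counts (8.14 CPM), whereas the other 4 held 0, 1, 4 and 6 counts. The mean of that group was 1.72 CPM with B15 and 0.1115 ± 0.1097 CPM without it (SD, n = 4).

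Glp2r, the receptor for the intestinal growth peptide GLP-2, was highest in colon. LT aged controls had 7.71 to 18.7 CPM (median 15.9) and exenatide animals 16.7 to 22.2 CPM (median 18.7), so all 8 treated libraries lay above the control median. The difference was 0.36 ± 0.17 with all libraries (adjusted p = 0.165). Without A52 and A53, which were in neither group but entered the fit's estimate of the spread, it was 0.35 ± 0.12 (adjusted p = 0.0468; all genes: 18.5%). With only the aged groups in the fit it was 0.35 and did not pass (adjusted p = 0.0628), nor did it without A52, A53 and the libraries with pancreas markers (0.355, adjusted p = 0.115). Smooth muscle markers (5 genes) summed to 3108 to 5108 CPM in aged controls and 2277 to 4072 with exenatide, and 6 enteric neuron markers to 39.8 to 69.8 and 32.2 to 62.2 CPM. Both ranges reached lower with exenatide, and their part was not tested. In the ST and YA colon, group means lay between 17.1 and 19.6 CPM and no comparison passed.

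Hippocampus followed at 6.42 ± 2.06 CPM in LT young (6.01 ± 1.84 without A53), 5.04 ± 1.86 in aged and 6.99 ± 2.82 in exenatide animals (SD, n = 8, 9 and 8), below colon by 1.53 on the log2 scale in the aged controls (exact permutation test, adjusted p = 0.000177). Choroid plexus markers (5 genes) varied from 49.0 to 7779 CPM between LT hippocampus libraries, and their part in the spread of Glp2r was not tested. Over all groups, mean Glp2r in hippocampus and frontal cortex was 2.31 and 2.74 CPM in ST, and 2.98 and 1.88 CPM in YA. Hippocampus thus did not lead frontal cortex in ST, where the order was not tested. In LT aged controls, Glp2r did not differ beyond the spread between frontal cortex and spleen (0.36, adjusted p = 0.237), nor between spleen and hypothalamus (0.20, adjusted p = 0.424).

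With all libraries, the only Glp2r call was in LT liver, and it rests on few counts. Young controls had 0, 0, 1, 1, 3, 4, 4 and 6 counts (at most 0.252 CPM), and aged controls had 3 to 47 counts (0.116 to 1.59 CPM, median 0.430), the highest in B15. Glp2r was higher with age by 2.25 ± 0.53 (adjusted p = 0.016; all genes in LT liver: 4.50%), and leaving out each animal in turn gave 1.85 to 2.59 with the call kept. Exenatide-treated animals had 5 to 16 counts (0.187 to 0.626 CPM) and all 8 lay above 7 of the 8 young libraries. T-cell markers in liver summed to 3.11 to 5.53 CPM in young and 3.03 to 14.6 CPM in aged controls, and hepatocyte markers to 91701 to 118190 and 96042 to 127750 CPM. Their part was not tested.

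Gipr, the receptor for GIP, was an adipose and brain transcript. In LT aged controls, adipose tissue and frontal cortex did not differ beyond their spread (0.30, adjusted p = 0.424), nor did frontal cortex and hippocampus (0.38, adjusted p = 0.312) or hippocampus and hypothalamus (0.16, adjusted p = 0.586). Hypothalamus stood 1.997 above colon (exact permutation test, adjusted p = 0.000177). No neighbouring pair among the 4 leading tissues was separated in the aged animals, and adipose tissue had the highest mean in the young.

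In LT adipose tissue, Gipr ranged from 5.85 to 10.7 CPM in young controls (median 7.97), from 1.18 to 6.74 in aged controls (median 5.05) and from 2.34 to 5.74 with exenatide (median 4.45). All 8 exenatide-treated animals lay below every young control. Gipr was lower in aged than in young controls by 1.87-fold (log2 fold change -0.90 ± 0.25, adjusted p = 0.00525), in a tissue and comparison where 50.8% of all genes were called. Leaving out each animal in turn gave -1.003 to -0.77, past the threshold every time. Within batch 3 the value was -1.02 (adjusted p = 0.0771) and within the other batches -0.82 (adjusted p = 0.0985). The exenatide difference did not pass (-0.03 ± 0.25, adjusted p = 0.953). Adipocyte markers in the same libraries summed to 13858 to 24540 CPM in young, 3575 to 11921 in aged and 9240 to 29471 with exenatide. Lymph node markers (5 genes) summed to 6.45 to 130.4, 134.6 to 821 and 155 to 789 CPM, with no overlap between young and aged. Their part in the Gipr difference was not tested.

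In ST adipose tissue, Gipr was lowest in the exenatide animals, but the difference did not pass. Aged controls had 3.94, 5.57, 5.68, 7.73 and 8.58 CPM, and exenatide animals 0.429, 0.468, 0.676, 0.975 and 2.22 CPM, so the groups did not overlap. The fitted difference was -2.75 ± 0.64 (unadjusted p = 0.000174, adjusted p = 0.145), in a fit where 0.00% of all 17665 genes were called. The DESeq2 test gave an adjusted p of 0.00385. This pair is described because its groups did not overlap, a choice made after the values were seen. Among knockdown animals, controls had 3.36, 4.54, 5.68, 6.36 and 6.78 CPM and exenatide animals 0.353, 0.430, 0.742, 3.06 and 3.75 CPM (-1.67 ± 0.61, adjusted p = 0.11). The difference between both exenatide effects was 1.09 ± 0.85 (adjusted p = 0.999). Rapamycin animals spread from 1.11 to 17.1 CPM. Adipocyte markers summed to 8129 to 19603 CPM in aged controls and 7380 to 24986 CPM with exenatide. T-cell markers summed to 10.7 to 159 and 30.3 to 259 CPM, and lymph node markers to 24.4 to 162 and 15.8 to 408 CPM. Their part was not tested. In YA adipose tissue Gipr was 2.26 ± 2.20 CPM in controls and 3.16 ± 2.50 CPM with exenatide (adjusted p = 0.996), and in LT adipose tissue, as above, exenatide and aged control values overlapped.

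**Figure D4:**
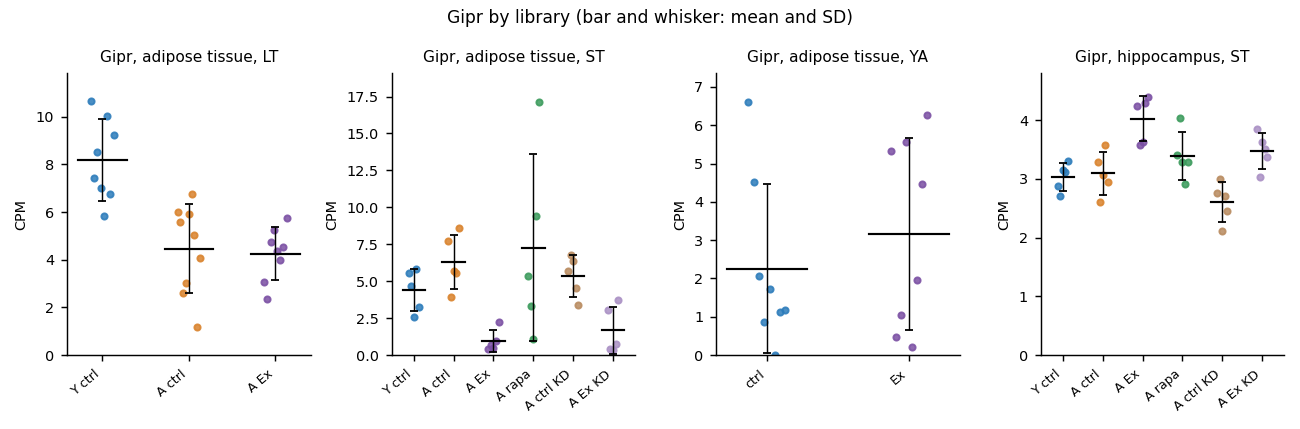
Gipr CPM (y axis) of each library (points), with the group mean (bar) and SD (whisker), in adipose tissue of the LT, ST and YA cohorts and in ST hippocampus, by group (Y young, A aged, Ex exenatide, rapa rapamycin, KD knockdown). The 5 ST exenatide adipose libraries (0.429 to 2.22 CPM) lie below all 5 aged controls (3.94 to 8.58 CPM), and the exenatide hippocampus libraries lie above their controls with and without the knockdown.

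In ST hippocampus the direction was the opposite, and it passed. Aged controls had 2.60, 2.94, 3.07, 3.28 and 3.57 CPM and exenatide animals 3.58, 3.63, 4.24, 4.29 and 4.39 CPM, without overlap. Gipr was higher by 0.35 ± 0.11 (1.27-fold, adjusted p = 0.0165; all genes in that tissue: 28.6%), and 0.31 without E23, where the call was lost (adjusted p = 0.0518). Among knockdown animals, controls had 2.11, 2.46, 2.70, 2.75 and 2.99 CPM and exenatide animals 3.03, 3.36, 3.505, 3.63 and 3.85 CPM, again without overlap. The increase there was 0.39 ± 0.11 (1.31-fold, adjusted p = 0.0077; all genes in that tissue: 31.3%), with 0.32 to 0.44 when each animal was left out and the call kept. These comparisons have no animal in common. The difference between them was 0.04 ± 0.16 (adjusted p = 0.964), an interval too wide to show that they are alike. Rapamycin animals had 2.91, 3.29, 3.29, 3.41 and 4.03 CPM (0.12 ± 0.11, adjusted p = 0.484). LT and YA hippocampus gave 0.04 ± 0.18 and -0.28 ± 0.37 for exenatide, neither past the threshold. Neuron markers in ST hippocampus summed to 4917 to 5646 CPM in aged controls and 5009 to 5342 with exenatide, and, with the knockdown, to 4732 to 5430 and 5211 to 5770 CPM. Choroid plexus markers summed to 51.3 to 392 and 61.8 to 105 CPM without it, and to 52.8 to 85.4 (median 61.6) and 68.9 to 129 CPM (median 109) with it. Library totals were 30.1 to 56.2 M with exenatide and 22.68 to 26.35 M in aged controls, without overlap. With the knockdown they were 24.53 to 33.58 M and 23.96 to 28.97 M, with overlap. The part of these markers and of library depth in the Gipr differences was not tested.

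Gcgr, the glucagon receptor, was a liver transcript with kidney second. Liver stood 3.11 above kidney on the log2 scale in LT aged controls and kidney 7.34 above hippocampus (exact permutation test, adjusted p = 0.000177 each). In liver, Gcgr ranged from 249 to 401 CPM in young controls (median 347), from 180 to 289 in aged controls (median 262) and from 138 to 321 with exenatide (median 246). All young livers except that of A52 lay above every aged control. Gcgr was lower with age by 1.47-fold (log2 fold change -0.56 ± 0.15, adjusted p = 0.0373; all genes in LT liver: 4.50%). The call was lost with any 1 of 12 animals left out (A55, A56, A57, A58, B13, B14, B15, B19, B25, B37, B39 or B41), with values from -0.57 to -0.47 and adjusted p up to 0.108. All livers were sequenced in 1 batch. Exenatide livers overlapped the aged controls and gave no call.

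Kidney Gcgr was 33.03 ± 5.24 CPM in young, 28.4 ± 6.35 in aged and 29.4 ± 4.77 in exenatide animals (SD, n = 8, 9 and 8), an age difference of -0.25 ± 0.11 (adjusted p = 0.172). Adipose tissue had 2.36 ± 1.40 CPM in LT young and 1.33 ± 0.860 in aged controls (-0.99 ± 0.45, adjusted p = 0.0712). The DESeq2 Wald test called that difference (-1.01, adjusted p = 0.0466) and a lower Gcgr with age in LT colon (-1.56, adjusted p = 0.0239), where Gcgr did not pass the filter on low counts of the edgeR fit. Hippocampus took its rank in the young order, next after kidney, only through the library of A53, with 954 counts (34.4 CPM) where the other 7 had at most 3. Without it the mean fell from 4.34 to 0.0395 CPM.

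Dpp4, the peptidase that ends the action of GLP-1 and GIP, was the most widely found member and gave the most calls. It was also tested in the most combinations (8 called of 74, against 7 of 60 for Pcsk1). In LT aged controls, spleen, lung and liver did not differ beyond their spread in plain CPM (exact permutation test). The differences were -0.04 for spleen against lung (adjusted p = 0.754) and -0.08 for lung against liver (adjusted p = 0.546). Liver stood 0.92 above white blood cells (exact permutation test, adjusted p = 0.00147), white blood cells and kidney did not differ beyond their spread (-0.32, adjusted p = 0.127), and kidney stood 0.67 above adipose tissue (0.00851). Adipose tissue stood 3.302 above skeletal muscle (0.000177). Skeletal muscle and heart did not differ beyond their spread (0.26, adjusted p = 0.459), and heart stood 1.26 above hippocampus (0.0015).

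With age, Dpp4 was lower in spleen. Young spleens had 128 to 198 CPM (median 177), aged controls 98.7 to 150 CPM (median 124) and exenatide animals 54.2 to 152 CPM (median 115). All young libraries except that of A56 lay above every aged control, and the difference was -0.45 ± 0.12 (adjusted p = 0.0162; all genes in LT spleen: 11.2%). It stayed past the threshold with each animal left out (-0.49 to -0.41). Within batch 3 it was -0.54 (adjusted p = 0.0605) and within the other batches -0.39 (adjusted p = 0.229). T-cell markers summed to 359 to 588 CPM in young and 367 to 550 in aged spleens, and B-cell markers to 7094 to 11534 and 17389 to 28226 CPM, which did not overlap; their part was not tested.

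White blood cells moved the same way in both cohorts that had young and aged controls, with separate animals. LT young controls had 91.5, 97.8, 114, 132 and 141 CPM and aged controls 48.1, 53.1, 79.9, 90.3 and 97.4 CPM, so 1 aged library reached into the young range. The difference was -0.43 ± 0.14 (adjusted p = 0.0371; all genes: 27.7%). It was lost without A56, A57, A58, B24, B27 or B34 (-0.45 to -0.34, adjusted p up to 0.0999). ST young controls had 16.1, 60.5, 80.9, 90.1 and 102 CPM and aged controls 22.1, 33.3, 40.4, 43.6 and 55.7 CPM. The young library of A44 lay below every aged one, and the other 4 lay above them. The ST difference was -0.88 ± 0.25 (adjusted p = 0.0131; all genes: 23.6%) and kept its call with each animal left out (-0.995 to -0.718). Neutrophil markers (5 genes) summed to 1234 to 4082 CPM in LT young and 3191 to 6933 in LT aged, and to 601 to 5113 and 2402 to 12756 CPM in ST. T-cell markers summed to 360 to 630 and 437 to 1100 CPM in LT, and 109 to 369 and 115 to 303 CPM in ST. B-cell markers summed to 3649 to 5906 CPM in LT young and 1348 to 3341 in LT aged, without overlap, and to 533 to 3776 and 615 to 4378 CPM in ST. Their part in the Dpp4 difference was not tested.

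**Figure D5:**
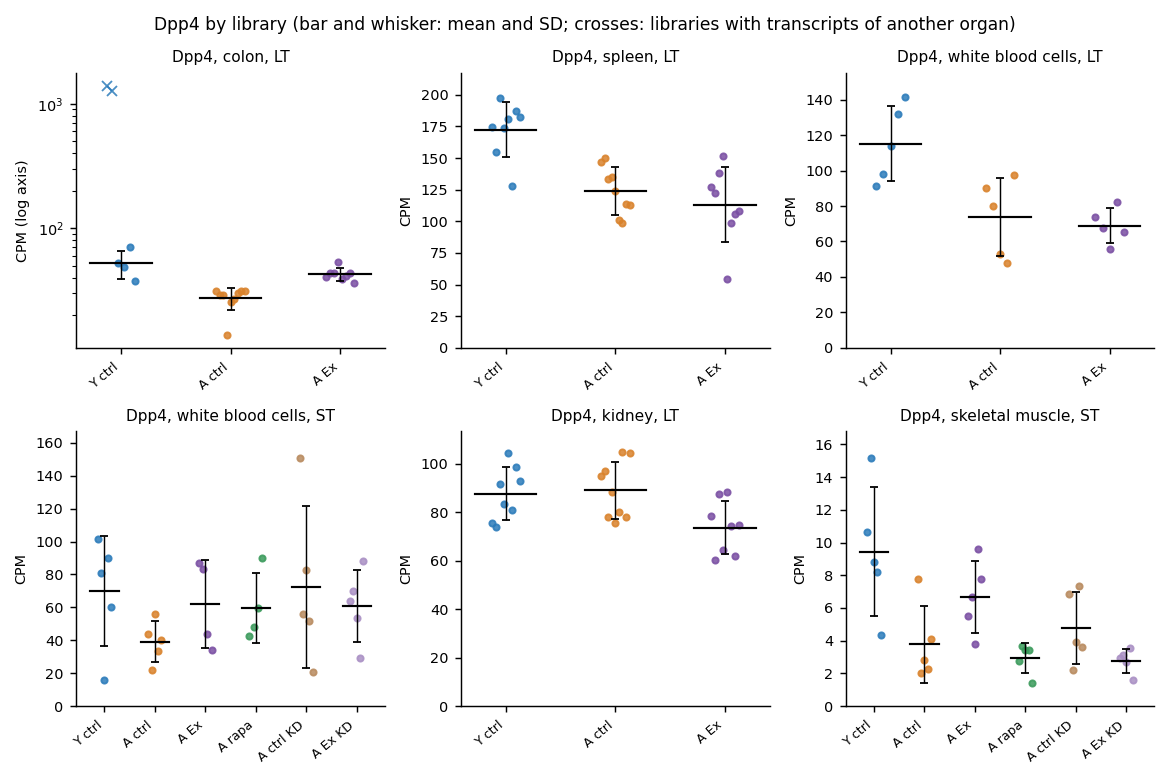
Dpp4 CPM (y axis; log scale for colon only) of each library (points), with the group mean (bar) and SD (whisker), in 5 of the tissues where Dpp4 was called, by group (Y young, A aged, Ex exenatide, rapa rapamycin, KD knockdown); crosses are left out of the mean. The LT young colon libraries A52 and A53 lie at 1398 and 1267 CPM, far above the other 4 young libraries (37.6 to 69.9 CPM).

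LT colon gave the Dpp4 value farthest from 0, and its size rests on the libraries that stand apart. A52 and A53 had 1398 and 1267 CPM. The other 4 young colons had 37.6, 48.7, 52.6 and 69.9 CPM, and the 9 aged controls 13.7 to 31.2 CPM (median 29.01), so young and aged did not overlap either way. With all libraries the age difference was -4.26 ± 0.68 (adjusted p = 0.0013; all genes: 14.4%), and without A52 and A53 it was -0.81 ± 0.15 (adjusted p = 0.00443; all genes: 3.96%). Exenatide animals had 36.2 to 53.4 CPM (median 42.2), above every aged control. That difference was 0.61 ± 0.59 with all libraries (adjusted p = 0.549) and 0.58 ± 0.12 without them (adjusted p = 0.00341; all genes: 18.5%). With only the aged groups in the fit it was 0.58 (adjusted p = 0.00296). Without A52, A53 and the libraries with pancreas markers, the values were -0.65 ± 0.14 for age (adjusted p = 0.0416) and 0.51 ± 0.12 for exenatide (adjusted p = 0.0159). B30, of the ambiguous source name, had 40.86 CPM. Small-intestine markers (7 genes) summed to 179 to 326 CPM in the 4 young, 152 to 234 in the aged and 214 to 295 in the exenatide libraries, and 7 T-cell markers to 20.8 to 73.5, 25.8 to 46.1 and 19.1 to 42.4 CPM. Their part was not tested.

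Other colons did not show these differences past the threshold. ST young and aged controls had 58.7 to 64.1 and 60.0 to 66.7 CPM (-0.01 ± 0.15), and exenatide animals 62.3 to 74.6 CPM (0.12 ± 0.15, adjusted p = 0.885). YA controls had 23.1 to 38.8 CPM and exenatide animals 30.5 to 48.1 CPM (0.26 ± 0.12, unadjusted p = 0.0508, adjusted p = 0.264).

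In LT kidney, Dpp4 was lower with exenatide. Aged controls had 75.6 to 105 CPM (median 88.4) and exenatide animals 60.1 to 88.1 CPM (median 74.4), with overlap, and young controls 73.9 to 104 CPM. The difference was -0.32 ± 0.10 (adjusted p = 0.0341; all genes: 14.2%), the only LT exenatide call among the members with all libraries. It was lost without B14, B15, B16, B24, B26, B30, B36, B37 or B41 (-0.32 to -0.28, adjusted p up to 0.0725). Within batch 3 it was -0.52 (adjusted p = 0.0298) and within the other batches -0.20 (adjusted p = 0.381). Markers of the proximal tubule (6 genes), a segment whose brush border carries this peptidase, summed to 26360 to 38710 CPM in aged controls and 8326 to 25474 with exenatide, without overlap. Mme, which encodes the neprilysin peptidase of the same brush border, was lower in these kidneys by 0.56 on the log2 scale (-0.56 ± 0.14, adjusted p = 0.0122). The marker sum weighs the most abundant genes of its list most. The part of the proximal tubule in the Dpp4 difference was not tested.

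LT adipose tissue was the only tissue in which Dpp4 was called higher with age. Young controls had 36.4 to 49.96 CPM (median 41.7) and aged controls 32.1 to 116 CPM (median 51.8), a wider range that enclosed the young one. The difference was 0.49 ± 0.19 (adjusted p = 0.0377; all genes: 50.8%). Leaving out A51, A54, A55, A56, A57, B37 or B39 ended the call (0.31 to 0.48, adjusted p up to 0.098), as did the fit without the filter on low counts (adjusted p = 0.0515) and the fit with only these groups (0.0513). Within batch 3 it was 0.62 (adjusted p = 0.268) and within the other batches 0.37 (adjusted p = 0.138). The T-cell and B-cell marker sums given for Pcsk1 and the lymph node sums given for Gipr were higher in the same aged libraries, and 7 markers of adipose progenitors, cells known to carry Dpp4, summed to 531 to 1450 CPM in young and 906 to 2014 in aged. Their part was not tested.

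ST skeletal muscle had low Dpp4 levels and gave calls for age and for the exenatide difference. Young controls had 4.37, 8.21, 8.79, 10.7 and 15.2 CPM and aged controls 2.001, 2.25, 2.80, 4.09 and 7.76 CPM, of which E13 was highest. The age difference was -1.21 ± 0.35 (adjusted p = 0.0161; all genes: 18.5%), and -1.01 without A44, where the call was lost (adjusted p = 0.0538). With only these groups in the fit it was -1.22 (adjusted p = 0.0999).

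The response of Dpp4 in muscle to exenatide differed between animals with and without the knockdown. Without it, exenatide animals had 3.78, 5.50, 6.65, 7.75 and 9.59 CPM (0.74 ± 0.35 against aged controls, adjusted p = 0.139). With it, they had 1.61, 2.68, 2.92, 3.14 and 3.57 CPM against 2.20, 3.64, 3.92, 6.84 and 7.32 CPM in knockdown controls (-0.75 ± 0.35, adjusted p = 0.361). Neither effect passed on its own. The test of the difference between them gave -1.49 ± 0.50 (adjusted p = 0.0347), in a tissue where 19% of all genes passed the same test. That call was lost without E5, E8, E16, E20, E23, E25, E29, E30 or E34 (-1.49 to -1.26, adjusted p up to 0.081), and without the filter on low counts (-1.503, adjusted p = 0.0572). Markers of fibroblast-like progenitors (the adipose progenitor list) summed to 180 to 269 CPM in aged controls, 245 to 374 with exenatide, 231 to 279 with knockdown and 191 to 225 with both, and endothelial markers to 134 to 181, 49.9 to 95.3, 72.3 to 101 and 71.9 to 168 CPM. Both sums moved with the groups, and their part was not tested.

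Genes with a pattern most like that of a member over the 12 tissue means of the LT young controls are given as a description, since tissues share animals and batches. For Glp1r they were Slc35g3 (Pearson r = 0.974), Ccdc33 and Cibar2, and for Gcgr, Ftcd (0.98), Pzp and Kng2, transcripts made mostly in liver. Pcsk1 was most like Wnt3 (0.976), Bcas1 and Npas4. Without the libraries of A52 and A53 that stood apart, Nkx2-1 took the place of Cibar2, Serpina1d that of Kng2, with Pzp ahead of Ftcd, and Map2k1 entered for Wnt3, with Bcas1 first. With and without them, Glp2r was most like Tdrd1 (0.927 with all libraries) and Grem1. Gcg and Pla2g2a (0.999) were both bright in colon alone, which leaves little else to compare. For Dpp4 all 3 nearest genes changed: Nat2, Tradd and Crybg1 with all libraries, and Tmem243, Phldb3 and Slc35d2 without them. Within the LT colon libraries, after removing group and batch means, Dpp4 went with Pdzk1 (r = 0.99 over 23 libraries), Slc16a10, Slc43a2, Anpep and Slc6a19. A52 and A53 are among these, with Anpep at 10025 and 7449 CPM against 8.27 to 25.5 CPM in the other 21. For Dpp4, no likeness within colon was computed without them. Without A52 and A53 its leading tissue by plain CPM was spleen, where it went with Herc3 (0.961 over 25 libraries) and Cyld. In lung, Glp1r went with Ppp1r16b (0.914 over 24 libraries), Frmd4a and Pxdn.

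A list of 51 further genes of the axis was read beside the members: other ligands and receptors of the family, processing proteins, peptidases, cyclic AMP signalling, nutrient receptors of endocrine cells and transcription factors of Gcg cells. With age in LT, 45 gene and tissue pairs were higher and 26 lower of 450 tested (15.8%, where all genes gave 13.6%). Adipose tissue had 10 of the higher and 12 of the lower pairs, of 37 tested there (all genes in that tissue: 50.8%). Among them were lower Cpe, a carboxypeptidase that trims prohormones (-1.82 ± 0.40), and lower Ffar4, a fatty acid receptor (-1.25 ± 0.26). Vipr2, a receptor for VIP, was higher (1.79 ± 0.26). Exenatide in LT gave 17 higher and 17 lower of 450 (7.56%; all genes 4.92%). In adipose tissue Ffar4 was then higher (0.72 ± 0.25) and Vipr2 lower (-0.70 ± 0.24), and in colon Pcsk1n, which encodes an inhibitor of the Pcsk1 convertase, was lower (-1.42 ± 0.22). These fits share the aged controls. The YA animals gave 2 higher and 1 lower of 301 (0.997%, all genes 0.631%), all in colon. Colon also held 347 of the 348 higher and 449 of the 450 lower calls over all genes.

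In ST, age gave 19 higher and 19 lower of 267 (14.2%; all genes 13.6%), exenatide 7 higher and 20 lower (10.1%; 8.0%) and rapamycin 15 higher and 19 lower (12.7%; 13.2%). Knockdown alone gave 3 and 3 (2.25%; 3.27%), exenatide within knockdown 8 and 14 (8.24%; 4.94%), and the difference of the exenatide effects 8 higher and 3 lower (4.12%; 2.41%). Hippocampus, the tissue of the Gipr call, held 3 of the higher and 12 of the lower exenatide pairs, of 41 tested there (all genes in that tissue: 28.6%). Library totals there did not overlap between the groups compared, as given for Gipr. Scg5, which encodes the chaperone 7B2 of another prohormone convertase, was higher there with exenatide (0.42 ± 0.09) and within knockdown (0.51 ± 0.09), and Mme was lower in both (-0.38 ± 0.14 each). The 11 calls for the difference of exenatide effects were all in skeletal muscle, beside that of Dpp4. They included the cyclic AMP sensors Rapgef3 (2.04 ± 0.30) and Rapgef4 (1.85 ± 0.62), and Fap, a serine peptidase of the Dpp4 family expressed by fibroblasts (-0.90 ± 0.29). Among protein-coding genes in the RefSeq order, Slc4a10, Dpp4, Gcg and Fap lie next to each other, and while Gcg was found in colon, Dpp4 was found in all 12 tissues.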

How the data were processed

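Poly(A) RNA of frozen tissue was made into NEBNext Ultra II libraries and sequenced, per the labels' protocols. The submitters' processing notes name FastQC 0.11.9 and the build GRCm39; the sources used here do not name an aligner or counter. For the LT cohort the authors deposited whole read counts per gene. For the ST and YA cohorts the authors deposited estimated counts, of which 7.37% and 7.21% of nonzero values were not whole, and these were rounded before testing. The tables were made separately, so levels are set side by side across cohorts without a test.

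The 7 members, the list of 51 genes, the 25 lists of cell markers and the tests were chosen with earlier results of these data known. Levels are CPM (counts scaled by the library total). Marker lists are summed as plain CPM, so the most abundant genes of a list weigh most in its sum. Within each cohort and tissue, 1 edgeR fit (4.0.16, R 4.3.3; TMM scaling, filterByExpr, robust quasi-likelihood) held all groups, with the sequencing batch of the labels as a term where LT tissues had more than 1. P-values were adjusted over all genes of a tissue and comparison, and called under 0.05. The scripts were tested on simulated data. ST libraries all came from batch 5, LT livers from batch 3 and LT white blood cells from batch 1. A replicate is an animal, and no animal is in more than 1 group, so pairing exists only between tissues of an animal. Alternatives were DESeq2 (1.42.0) size factors and Wald test, no filter on low counts, only the groups compared, no batch term, single batches, each animal left out, and, added after seeing the data, all fits without A52 and A53 colon and A53 hippocampus, and colon fits without the libraries with pancreas markers. Every member is described by level; per-library values are given for called pairs and for each member's leading tissue. Likeness was computed over genes reaching 1 CPM in a tissue, leaving out predicted and clone names, of which the LOC and AY names were dropped after seeing them. The liver libraries of the exenatide animals B13 and B14 carry each other's number in part of their labels, which leaves their group unchanged. Sequences and coordinates of the members are not printed here. Annotated coordinates were used for exon lengths and for the order of neighbouring genes.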

Additional observations from a re-analysis of the deposited data

Results flagged for a closer look

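Single libraries far from the rest of their group were looked for in 121 groups of 4 to 10 libraries, with a criterion (Dixon's) that flags about 5% of groups by chance; 12 groups were flagged. In LT colon, Dpp4 was 53.4 CPM in the exenatide animal B26 (the other 7 had 36.2 to 43.9) and 13.7 CPM in the aged control B24 (the other 8 had 25.6 to 31.2). In ST colon, Gcg was 41.4 CPM in the aged control E32 against 30.4 to 31.4 CPM in the other 4.

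In LT hippocampus, the young control A53 had 17.98 CPM of Dpp4 (the other 7 had 1.42 to 2.86) and 34.4 CPM of Gcgr (the others at most 0.126), and this library also held liver transcripts. Gcgr there was 0.432 CPM (11 counts) in the exenatide animal B26 and 0.380 CPM (10 counts) in the aged control B19, where the others had at most 0.125 and 0.130 CPM.

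The aged control B15 had 8.14 CPM of Glp1r in white blood cells (the others 0 to 0.239) and 1.59 CPM of Glp2r in liver (the others 0.116 to 0.639). Pcsk1 in frontal cortex was 64.9 CPM in the LT aged control B37 (the others 34.4 to 48.5) and 45.7 CPM in the ST aged control E29 (the others 68.6 to 77.4). In ST skeletal muscle, Pcsk1 was 1.80 CPM in the aged control E13 (the others 0.221 to 0.426), which carries the age and exenatide calls there.

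The effect of exenatide on Dpp4 in ST skeletal muscle differed between animals with and without the knockdown, with an interaction of -1.49 (log2; edgeR, adjusted p = 0.0347).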

How the results depend on the processing

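Of the 20 called fold changes of the members, all 20 stayed past the threshold with DESeq2 size factors, 19 of 19 with a value under the DESeq2 Wald test, 15 of 20 without the filter on low counts, 12 of 15 with only the groups compared, 9 of 10 without the batch term, 4 of 9 within batch 3 and 3 of 8 within batches 1 and 2; 8 stayed so with every animal left out, and none changed sign. Fits within a batch hold fewer animals. All LT livers came from batch 3 and all LT white blood cells from batch 1. For Gcgr and Glp2r in liver and Dpp4 in white blood cells, the fit without the batch term therefore repeats the main fit. So does the fit within their own batch, and these calls are counted as kept without being tested. With only the groups compared, Glp2r in liver and Pcsk1 in adipose tissue and in muscle gave no value, so these calls were not tested there. Dpp4 in colon gave none under the DESeq2 Wald test. Low counts limit Pcsk1 in muscle and adipose tissue, Glp2r in liver and Glp1r outside lung and hypothalamus, and tissue composition was not measured. Of 84 tissue levels, 8 moved by over 1 SD with TMM scaling.

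Member calls for LT age numbered 9, but 3 within batch 3 and 3 within batches 1 and 2, and calls of the 51-gene list 71, but 8 within batch 3. The member counts within batches include fits that repeat the main fit: liver in batch 3, white blood cells in batches 1 and 2. For LT exenatide, members numbered 1, but 2 with only the groups compared, 3 without the libraries that stand apart and 2 without these and those with pancreas markers; the list numbered 34, but 21 without the filter, 20 without the batch term, 12 within batch 3 and 17 within batches 1 and 2. The YA list calls numbered 3, but 8 with DESeq2. For ST exenatide, members numbered 2, but 1 without the filter and 4 with DESeq2. For rapamycin they numbered 2, but 1 without the filter and 0 with only the groups compared. For the knockdown, members numbered 0, but 1 with DESeq2, and the list 6, but 3 without the filter, 16 with DESeq2 and 10 with only the groups compared. For exenatide within the knockdown the list numbered 22, but 14 with only the groups compared. For the difference of exenatide effects, members numbered 1, but 0 without the filter, and the list 11, but 7 without the filter and 5 with only the groups compared. The causes of these changes were not tested.

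With each animal left out in turn, member calls ranged from 5 to 9 (LT age), 0 to 1 (LT exenatide), 0 to 0 (YA), 1 to 3 (ST age), 1 to 3 (ST exenatide), 1 to 3 (rapamycin), 0 to 1 (knockdown), 1 to 3 (exenatide within knockdown) and 0 to 1 (difference of effects). List calls ranged, in the same order, from 61 to 90, 16 to 40, 1 to 4, 27 to 45, 23 to 29, 25 to 42, 1 to 15, 18 to 26 and 7 to 13.

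Of the neighbouring tissues, 35 of 56 pairs were separated. With the animal as a block (sign flips within animals, a paired analysis) 25 were, and within batch 3 alone 0 of 46, where the smallest p any pair gave was 0.0014; with the order taken without the libraries that stand apart 30 of 55 were; leaving out each animal gave 29 to 34. No paired fit was possible within a tissue because no animal is in more than 1 group.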
